A study of Mus musculus with 12 samples.

Results

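Corticosteroids reach the hippocampus as hormones of the adrenal cortex and act there through 2 nuclear receptors, so 6 genes of this pathway were followed in the translatome of CA1 pyramidal neurons lacking FMRP. They were Nr3c2, which encodes the mineralocorticoid receptor, Nr3c1, which encodes the glucocorticoid receptor, Fkbp5, Hsd11b1, Sgk1 and Tsc22d3. The genes were picked by symbol among the 24079 genes of the count table, with the genotype difference of these libraries already known, and all 6 were among the 17823 genes that had at least 15 reads summed over the libraries. The genotype comparison of Nr3c2 in particular is therefore a description and not independent evidence.

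The mineralocorticoid receptor binds corticosterone with high affinity and the glucocorticoid receptor with lower affinity, so that in hippocampal neurons the former is largely occupied at rest and the latter is filled during stress or at the daily hormone peak. Both wait in complexes with heat shock proteins, move to the nucleus when bound, and as homodimers or heterodimers recognise the same inverted repeat in DNA. Pyramidal neurons of the hippocampus are among the brain cells richest in the mineralocorticoid receptor.

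The RNA was bound to ribosomes carrying Rpl22 with an HA tag, a large-subunit protein, and was pulled down from whole hippocampus. All mice carried the Wfs1-CreERT2 and RiboTag transgenes, so that the tag was switched on in cells that use the Wfs1 promoter, and all had received tamoxifen at 100 mg/kg on 3 days and were used 1 week later. They were C57BL/6J males aged 2 to 6 months. One group of 6 libraries came from wild-type mice and the other group of 6 from Fmr1-/y mice, in which the gene for FMRP is inactive in every cell and not in CA1 alone, and each library was made from a separate pool of 4 to 6 mice.

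Wild-type libraries held 39400980 to 55745464 reads on genes and Fmr1-/y libraries 43106629 to 65565479. Fmr1 had 1971 to 2608 reads in wild-type libraries and at most 1 read in any Fmr1-/y library. Wfs1 is the gene whose promoter drives the CreERT2 that switches on the tag. Its mean level was 1272 CPM (counts scaled to a common library size by the TMM method) in the wild-type and 1055 CPM in the Fmr1-/y group. The log2 fold change of Wfs1 was -0.27 (edgeR unadjusted p = 0.00827, adjusted p = 0.410). However, RNA of other cells was also present. Ttr of the choroid plexus had 8323 and 11319 CPM, Mbp of oligodendrocytes 655 and 574 CPM, and Gfap of astrocytes 232 and 280 CPM. Of 9 scores, each the mean log2 CPM over the markers of a cell type, none reached an adjusted p under 0.05 between genotypes (exact permutation test, two-sided). The endothelial score had the lowest unadjusted p, with 3.02 in wild-type and 3.36 in Fmr1-/y libraries (exact p = 0.0411, adjusted p = 0.239), and the CA1 score was 8.46 and 8.30 (exact p = 0.147, adjusted p = 0.265). The choroid plexus score had the widest gap, with 7.51 and 7.92 (exact p = 0.0736, adjusted p = 0.239). In RNA from such a pulldown, fewer cells of a type and less ribosome-bound RNA per cell cannot be told apart.

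Promoters of 3 of the 6 genes are shown because the receptors act through the inverted repeat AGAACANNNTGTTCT, and because Nr3c2 had the widest genotype gap of the 6. Each window is from RefSeq on GRCm38.p6 (mm10), runs 5′ to 3′ from 250 bases before an annotated start to 50 bases after it, and has the matched letters in capitals. Windows were given for 5 of the 6 genes. The Sgk1 window (chr10:21993640-21993939, plus strand) holds the whole repeat, the Tsc22d3 window (chrX:140600473-140600772, minus strand, 1 of 3 windows of the gene) holds 1 arm of it, TGTTCT, and the Nr3c2 window (chr8:76902080-76902379, plus strand) holds CCAAT boxes, written CCAAT or, on the other strand, ATTGG.
Sgk1: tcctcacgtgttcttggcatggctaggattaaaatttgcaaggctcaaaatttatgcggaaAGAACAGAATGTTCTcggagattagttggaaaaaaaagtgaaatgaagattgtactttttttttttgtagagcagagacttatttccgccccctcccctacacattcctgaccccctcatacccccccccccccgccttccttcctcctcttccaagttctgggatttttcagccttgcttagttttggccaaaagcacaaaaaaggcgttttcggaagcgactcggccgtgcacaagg
Tsc22d3: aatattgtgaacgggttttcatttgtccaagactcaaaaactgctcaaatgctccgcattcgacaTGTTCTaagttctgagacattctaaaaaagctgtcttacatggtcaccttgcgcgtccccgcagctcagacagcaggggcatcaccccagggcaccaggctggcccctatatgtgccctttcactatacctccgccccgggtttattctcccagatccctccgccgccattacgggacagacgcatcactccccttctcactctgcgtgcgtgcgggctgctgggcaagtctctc
Nr3c2: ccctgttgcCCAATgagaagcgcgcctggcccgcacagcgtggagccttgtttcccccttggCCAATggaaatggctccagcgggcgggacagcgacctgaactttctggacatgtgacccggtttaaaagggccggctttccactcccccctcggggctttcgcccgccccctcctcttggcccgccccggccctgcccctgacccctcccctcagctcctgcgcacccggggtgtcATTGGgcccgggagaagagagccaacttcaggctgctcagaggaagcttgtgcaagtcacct

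Both strands of 32851 windows of 27025 genes were searched. The full repeat occurred in 3 windows, or 0.00913% of them, and 1 of these was the Sgk1 window, where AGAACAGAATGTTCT lies at 21993701 to 21993715, with its first base 189 bases before the start at 21993890. Sgk1 has 6 windows, and the other 5 held no full repeat. The arm on its own, AGAACA or TGTTCT, which is part of the full repeat, was in 19% of all windows. It lies 185 bases before the start of the Tsc22d3 window shown and was absent from the other 2 windows of Tsc22d3. Of the 6 Sgk1 windows 3 held it, the one shown among them, and the single windows of Nr3c2, Fkbp5 and Hsd11b1 did not. The windows of Nr3c2 and Hsd11b1 are at starts inside the gene, 76902330 and 193242360. The outer 5′ ends of these genes, 76898083 and 193264045, had no window and were not searched. CCAAT boxes, found in 37.4% of windows, numbered 3 in the Nr3c2 window, the first of them 241 bases before the start. That window was also rich in G and C, at 65.7% with 17 CpG pairs, where the median over all windows was 52.7% and 7. Neither trait was particular to Nr3c2. The Fkbp5 window had 70.7% with 32 CpG pairs, and the Sgk1 window with its start at 21994666 had 69.7% with 28. CCAAT boxes were also in the Fkbp5 window, with 2, the Hsd11b1 window, with 1, and some Sgk1 windows, but not in those of Tsc22d3. These matches describe the letters and are no measure of binding.

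Nr3c2 (Entrez 110784, chromosome 8 from 76898083 to 77245012) was the gene of the 6 with the widest genotype gap. Wild-type libraries ranged from 96.4 to 123.5 CPM with a median of 113, and Fmr1-/y libraries from 67.4 to 94.1 CPM with a median of 82.9. All 6 Fmr1-/y libraries thus lay below the lowest wild-type library, wild-type replicate 6. With scaling by library size only, the groups overlapped, since 1 Fmr1-/y library at 96.8 CPM stood above a lowest wild-type library of 93.0 CPM.

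Nr3c2 averaged 113 ± 9.31 CPM in the wild-type group and 83.2 ± 10.2 CPM in the Fmr1-/y group (SD, n = 6 each), or 73.7% of the wild-type level. The log2 fold change was -0.44 (SE 0.08, 95% interval -0.61 to -0.27). In edgeR's quasi-likelihood test the unadjusted p was 4.76e-05, which ranked 7 among all genes tested, and the Benjamini-Hochberg adjusted p was 0.121, so Nr3c2 did not pass the threshold of 0.05. DESeq2's Wald test gave an adjusted p of 0.00118 for a log2 fold change of -0.44, and limma voom gave 0.127. Over 22 other settings of the fit, the log2 fold change stayed between -0.48 and -0.34 while the adjusted p ran from 0.00118 to 0.952. The highest of these p-values came with the endothelial marker score as a covariate, where the log2 fold change was -0.36, and with the dentate granule score it was -0.34 (edgeR adjusted p = 0.471). Within genotypes the r of Nr3c2 with the dentate granule score was 0.632, but -0.31 without the 2 libraries farthest in the score, so it rests on those libraries. The score over 4 of 4 listed genes ran from 3.43 to 3.89 in wild-type and from 3.12 to 3.63 in Fmr1-/y libraries. With the CA1 score as a covariate the log2 fold change of Nr3c2 was -0.38 (edgeR adjusted p = 0.238). Within genotypes the r of Nr3c2 with the CA1 score was 0.471, and 0.40 without the 2 libraries farthest in that score. Spearman's correlation with the CA1 score was 0.699 (permutation p = 0.0266, adjusted 0.774). The part of cell mixture in the Nr3c2 difference was not tested beyond these fits. The lncRNA gene Gm10649 overlaps the Nr3c2 locus and has a count of its own.

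**Figure D1:**
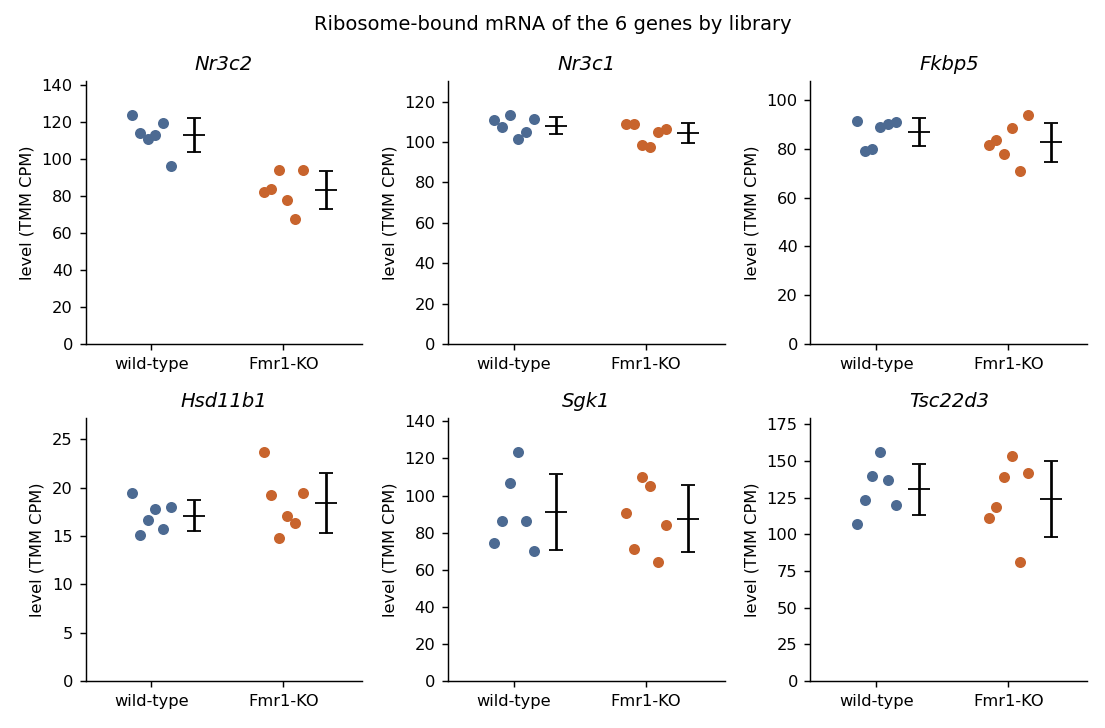
Level of each of the 6 genes in TMM-scaled CPM (vertical axes, from 0) in 6 wild-type (blue) and 6 Fmr1-/y libraries (orange, marked Fmr1-KO). Points are libraries in replicate order and the bars give mean and SD: in the Nr3c2 panel the Fmr1-/y points, up to 94.1 CPM, all sit below the wild-type points, which start at 96.4 CPM, and in the other 5 panels the groups overlap.

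Among the 6 genes, edgeR called 0 at an adjusted p under 0.05 and 1, Nr3c2, at an unadjusted p under 0.05, against 0.0224% and 7.96% of all genes tested. DESeq2 called 1, also Nr3c2, against 0.471% of all genes. Nr3c2 was also the 1 gene of the 6 whose groups did not overlap in CPM, as was the case for 0.623% of genes. The median log2 fold change was -0.06 over the 6 genes and 0.004 over all genes.

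Nr3c1 (Entrez 14815, chromosome 18 from 39410545 to 39519421, minus strand) had nearly equal levels in both genotypes. Wild-type libraries spanned 101 to 113 CPM with a median of 109, and Fmr1-/y libraries 97.7 to 109 CPM with a median of 106. The ranges overlapped over most of their width. The log2 fold change was -0.05 (SE 0.05, 95% interval -0.17 to 0.06, edgeR adjusted p = 0.883, with 0.827 to 0.984 over the other settings), from means of 108 ± 4.43 and 104 ± 4.96 CPM (SD, n = 6 each). The interval reached down to -0.17, short of the Nr3c2 value of -0.44. Nr3c1 was also among the steadiest genes between libraries, since its SD of log2 CPM within genotypes was lower than that of all but 2.94% of genes with at least 10 CPM, whereas Nr3c2 stood at the 57.4 percentile.

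The balance of both receptors was read as the ratio of Nr3c2 to Nr3c1 reads in the same library, which needs no scaling between libraries. It was 1.05 ± 0.104 in wild-type and 0.800 ± 0.108 in Fmr1-/y libraries (SD, n = 6 each). Wild-type libraries ran from 0.867 to 1.14 and Fmr1-/y libraries from 0.643 to 0.953. The groups overlapped here, because wild-type replicate 6 at 0.867 lay below Fmr1-/y replicate 3 at 0.953 and replicate 6 at 0.882. The mean log2 ratio was lower by 0.39 in Fmr1-/y libraries, with -0.44 to -0.33 when each library was left out in turn. No test was run on the ratio, as it is built from genes chosen with their values known. The deepest library, Fmr1-/y replicate 5, had the lowest ratio, and within genotypes the correlation of Nr3c2 and Nr3c1 was far from the threshold (r = -0.12 over 12 libraries, permutation p adjusted over 15 gene pairs = 0.908, Spearman's correlation -0.15 with an adjusted p of 0.778).

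**Figure D2:**
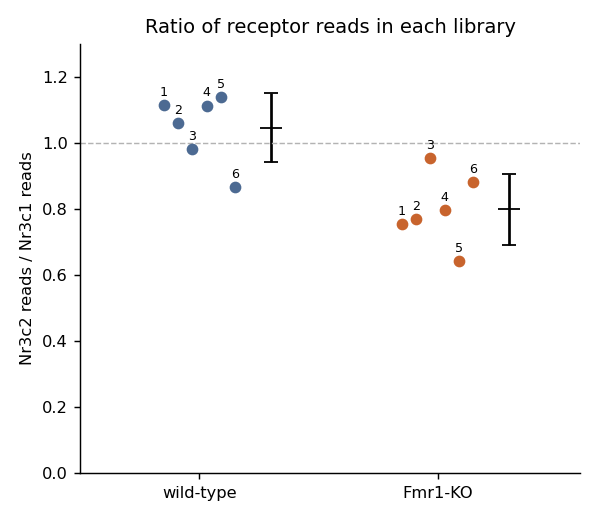
Nr3c2 reads divided by Nr3c1 reads (vertical axis, no unit) in each wild-type (blue) and Fmr1-/y (orange) library, with replicate numbers beside the points, mean and SD as bars and a dashed line at equal reads. Wild-type libraries lie between 0.867 and 1.14 and Fmr1-/y libraries between 0.643 and 0.953, with wild-type replicate 6 inside the Fmr1-/y range.

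Levels of different genes were compared as CPM per kilobase of exon. Tsc22d3 was highest of the 6, at 47.2 ± 6.28 in wild-type libraries, followed by Sgk1 at 22.5 ± 5.02, Nr3c2 at 18.3 ± 1.51, Nr3c1 at 16.5 ± 0.678, Fkbp5 at 13.3 ± 0.874 and Hsd11b1 at 9.07 ± 0.849 (SD, n = 6). Sgk1 and Nr3c2 were within 1 SD of Sgk1 of each other. In Fmr1-/y libraries Nr3c2 stood at 13.5 ± 1.65 per kilobase, below Nr3c1 at 15.9 ± 0.759 and near Fkbp5 at 12.6 ± 1.22. Nr3c2 exceeded Nr3c1 per kilobase in 5 of 6 wild-type libraries and in 1 of 6 Fmr1-/y libraries, where the ratio per kilobase was 1.01. These counts depend on the lengths used. In reads no Fmr1-/y library had more Nr3c2 than Nr3c1, with a ratio of at most 0.953, and wild-type replicate 3 stood at 0.980. The place of Fkbp5 depends on the length used, since with its longest transcript of 3858 bases in place of 6539 bases of all its exons it had 22.5 CPM per kilobase in wild-type libraries and stood above both receptors.

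Other receptors of the NR3 family spanned a wide range of levels on this scale. The estrogen-related receptor Esrra had 25.8 CPM per kilobase in wild-type libraries, above both corticosteroid receptors, whereas the progesterone receptor Pgr had 2.09, Esrrg 1.98, the estrogen receptor Esr1 0.902, Esrrb 0.309 and the second estrogen receptor Esr2 0.120. Of these 6 genes, edgeR and DESeq2 called 0 at an adjusted p under 0.05. In edgeR 0 had an unadjusted p under 0.05, where 7.96% of all genes did. The median log2 fold change over the 6 was -0.02, with Esrra at 0.08, Pgr at -0.21 and Esrrg at -0.28.

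**Figure D3:**
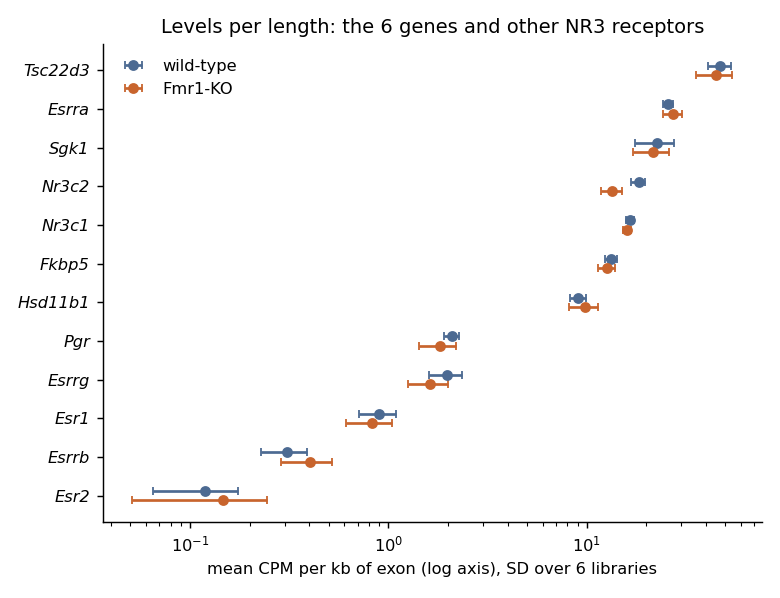
Mean CPM per kilobase of exon (horizontal log axis) of the 6 genes and of 6 other NR3 receptors in wild-type (blue) and Fmr1-/y libraries (orange), with SD over 6 libraries as bars. Tsc22d3 leads at 47.2 in wild-type libraries, Nr3c2 moves from 18.3 to 13.5 between genotypes, and Esr2 is lowest at 0.120.

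Fkbp5 (Entrez 14229, chromosome 17 from 28398753 to 28486149, minus strand) encodes a co-chaperone of Hsp90 that lowers the hormone affinity of the glucocorticoid receptor and is itself induced by it. It ranged from 78.9 to 91.4 CPM in wild-type libraries, with a median of 89.4, and from 70.8 to 93.6 CPM in Fmr1-/y libraries, with a median of 82.5. The wild-type range lay inside the Fmr1-/y range. The log2 fold change was -0.07 (SE 0.07, 95% interval -0.22 to 0.08, edgeR adjusted p = 0.885, with 0.719 to 0.996 over the other settings).

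The 15 other chaperones and co-chaperones of the receptors were all tested, and edgeR and DESeq2 called 0 of them. None had an unadjusted p under 0.05 in edgeR either, where 7.96% of all genes did. The log2 fold changes of the 15, between -0.04 and 0.08, had a median of 0.03. These chaperones include the genes of the pathway with the most reads. Hsp90ab1, the constitutive Hsp90, had 3918 and 3808 CPM in wild-type and Fmr1-/y libraries, the constitutive Hsp70 gene Hspa8 had 2961 and 3053 CPM, and Hsp90aa1 had 2111 and 2152 CPM. Their edgeR adjusted p-values were 0.937, 0.934 and 0.955.

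Hsd11b1 (Entrez 15483, chromosome 1 from 193221640 to 193264045, minus strand) encodes the enzyme that regenerates active corticosterone from its inert 11-keto form inside cells. Wild-type libraries ranged from 15.1 to 19.4 CPM with a median of 17.2, and Fmr1-/y libraries from 14.8 to 23.7 CPM with a median of 18.1. The groups overlapped, with Fmr1-/y replicate 1 standing highest. It was the 1 gene of the 6 with a positive log2 fold change, 0.11 (SE 0.11, 95% interval -0.12 to 0.33, edgeR adjusted p = 0.877, with 0.649 to 0.997 over the other settings), and this was 0.02 without Fmr1-/y replicate 1, 0.16 without Fmr1-/y replicate 3 and -0.03 with the endothelial score as a covariate. Within genotypes the r of Hsd11b1 with the astrocyte marker score was 0.742 over 12 libraries, the highest of 54 relations between the 6 genes and 9 marker scores. Spearman's correlation was 0.462 (permutation p = 0.189, adjusted 0.774). The score, a mean over 5 of 5 listed genes, ran from 6.90 to 7.16 in wild-type and from 7.05 to 7.62 in Fmr1-/y libraries. None of the 54 relations passed after adjustment (lowest permutation adjusted p = 0.412). The part of astrocyte RNA in the Hsd11b1 level was not tested.

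Of 13 further genes of steroid synthesis, conversion and transport, 7 had enough reads to be tested. edgeR and DESeq2 called 0 of the 7, and 1 had a higher level at an unadjusted p under 0.05, where 4.29% of all genes did. This was Abcb1a, the efflux pump of brain vessels that exports some corticosteroids, with 4.24 and 5.73 CPM. Its log2 fold change was 0.44 (edgeR adjusted p = 0.606). The endothelial score over 5 of 5 listed genes ran from 2.73 to 3.27 in wild-type and from 3.09 to 3.66 in Fmr1-/y libraries. The part of vessel RNA in the Abcb1a difference was not tested. H6pd, which supplies Hsd11b1 with its cofactor, had 12.6 and 11.3 CPM, and Srd5a1, which reduces steroids at the 5 alpha position, 11.5 and 11.6 CPM. The median log2 fold change over the 7 genes was 0.002.

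Sgk1 (Entrez 20393, chromosome 10 from 21882184 to 21999903) encodes a kinase that is rapidly induced by both receptors and regulates ion channels and transporters. It ranged from 69.9 to 123.5 CPM in wild-type libraries, with a median of 86.1, and from 63.9 to 110.3 CPM in Fmr1-/y libraries, with a median of 87.4. The groups covered nearly the same range, and the spread between libraries of one genotype was wider than that of 94.1% of genes with at least 10 CPM. The log2 fold change was -0.06 (SE 0.14, 95% interval -0.36 to 0.25, edgeR adjusted p = 0.961, with 0.598 to 0.999 over the other settings).

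Tsc22d3 (Entrez 14605, chromosome X from 140539528 to 140600522, minus strand) encodes GILZ, a leucine zipper protein induced by glucocorticoids. Wild-type libraries ranged from 106.8 to 156.2 CPM with a median of 130.6, and Fmr1-/y libraries from 81.4 to 153.3 CPM with a median of 128.8. Only Fmr1-/y replicate 5 fell outside the wild-type range. The log2 fold change was -0.07 (SE 0.13, 95% interval -0.34 to 0.19, edgeR adjusted p = 0.942, with 0.686 to 0.997 over the other settings). Without Fmr1-/y replicate 5, the log2 fold changes of both Tsc22d3 and Sgk1 turned to 0.02, and without wild-type replicate 4 that of Sgk1 was 0.05. This library, the deepest of the 12, had the lowest level of the Fmr1-/y libraries for Nr3c2, Fkbp5, Sgk1 and Tsc22d3.

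Sgk1 and Tsc22d3 varied together between libraries. Taken as deviations from the genotype means, their log2 CPM had r = 0.796 over 12 libraries (permutation p = 0.00198, adjusted over 15 pairs 0.0297), and Spearman's correlation was 0.769 (permutation p = 0.00813, adjusted 0.122). Without the 2 libraries farthest from the median of Sgk1, r was 0.761. It was the 1 pair of 15 past the threshold by r, and none passed by Spearman's correlation. Leaving out each library in turn gave r between 0.747 and 0.842, with adjusted p-values from 0.0142 to 0.197 that were over 0.05 in 7 of 12 cases, and 6 differences between same-numbered libraries gave r = 0.773 with an exact permutation p adjusted to 0.0625. Such a value was not rare for Sgk1, since 562 of 9692 genes with at least 10 CPM, or 5.80%, had an r with it at least as high. Counting either sign, as the two-sided permutation test does, the share was 12.7%. Both genes were lower in deeper libraries, with r of -0.551 for Sgk1 and -0.793 for Tsc22d3 against log2 depth, as a description. The r of Tsc22d3 with the dentate granule score was 0.676 and rested on 2 libraries, being 0.23 without them, and that of Sgk1 with the oligodendrocyte score was 0.685. With the endothelial score the r of Tsc22d3 was -0.651, and -0.84 without the 2 libraries farthest in that score. None of these relations passed after adjustment (permutation adjusted p = 0.412 for each). The part of depth and of other cells in the shared variation was not tested.

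**Figure D4:**
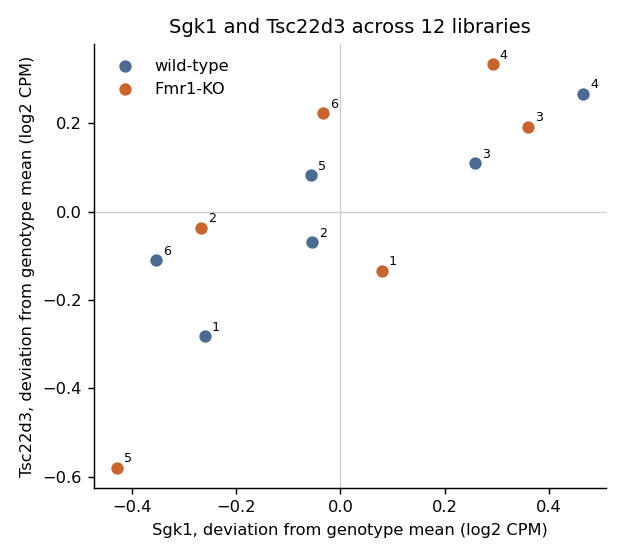
Deviation of Sgk1 (horizontal) and Tsc22d3 (vertical) from their genotype means in log2 CPM, 1 point for each wild-type (blue) or Fmr1-/y (orange) library with its replicate number. The points rise together (r = 0.796), with Fmr1-/y replicate 5 at the lower left end.

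Few of the 18 other genes known to respond to corticosteroids stood apart. edgeR and DESeq2 called 0 of them, and 2 had a higher and none a lower level at an unadjusted p under 0.05 in edgeR, where 4.29% of all genes were higher and 3.67% lower, while the median log2 fold change was 0.003. The higher ones were Angptl4, an inhibitor of lipoprotein lipase, at 1.34 and 2.28 CPM (log2 fold change 0.76, SE 0.23, edgeR adjusted p = 0.337) and the sulfotransferase gene Sult1a1 (0.32, edgeR adjusted p = 0.618), both named after their values were seen. The genes of the list with the most reads had log2 fold changes of 0.03 for Fam107a, which encodes an actin-binding protein (260 and 265 CPM), -0.14 for the transcription factor gene Klf9 (237 and 214 CPM) and -0.09 for Ddit4, an inhibitor of mTORC1 signalling (137 and 129 CPM). In the families of Sgk1 and Tsc22d3 and the partners of Sgk1, edgeR and DESeq2 called 0 of 10 genes. None had an unadjusted p under 0.05 in edgeR, where 7.96% of all genes did. The median of the 10 was -0.07, with Tsc22d1 at -0.07, the kinase gene Wnk1 at -0.08 and Nedd4l, a ubiquitin ligase that Sgk1 phosphorylates, at -0.06.

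Coregulators of the receptors had the largest share of genes with lower levels among the lists of 2 or more genes. edgeR and DESeq2 called 0 of the 15 genes at an adjusted p under 0.05, but 8 had a lower and none a higher level at an unadjusted p under 0.05 in edgeR, where 3.67% of all genes were lower, and the median log2 fold change was -0.14. Ncoa1, a coactivator of steroid receptors, had 194 and 167 CPM (log2 fold change -0.21, SE 0.06, edgeR adjusted p = 0.301), Nrip1, a corepressor, 15.1 and 11.5 CPM (-0.39, SE 0.11, edgeR adjusted p = 0.325), and the corepressor gene Ncor1 201 and 183 CPM (-0.14, SE 0.06, edgeR adjusted p = 0.60). The others were Ncoa2 at -0.17, the acetyltransferase genes Crebbp at -0.27 and Ep300 at -0.18, the Mediator subunit gene Med14 at -0.23 and Ppargc1a at -0.28, and these 5 and Nrip1 are named here after their values were seen. Smarca4, the remodelling ATPase, was level at 168 and 166 CPM. The count of 8 fell to 2 with scaling by library size only, which moved the median log2 fold change of all genes from 0.004 to 0.03, and also to 2 without Fmr1-/y replicate 1 or without Fmr1-/y replicate 2. It was 3 without wild-type replicate 2 or 5, and 4 without wild-type replicate 3 or 4 or Fmr1-/y replicate 5. In these fits with 2 to 4 lower coregulators, 2.77% to 3.61% of all genes were lower. The other alternatives kept 7 to 9 of the 15, where 3.77% to 4.49% of all genes were lower.

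Arhgap35, a GTPase-activating protein once named glucocorticoid receptor DNA binding factor, averaged 261 CPM in the wild-type and 221 CPM in the Fmr1-/y group, and the groups did not overlap. The log2 fold change was -0.25 (SE 0.05), with an adjusted p of 0.181 in edgeR and 0.00503 in DESeq2, and 0.00503 to 0.462 over all other settings. The authors, who called genes with DESeq2 at an adjusted p under 0.05, list this gene as Grlf1 among those that differed.

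**Figure D5:**
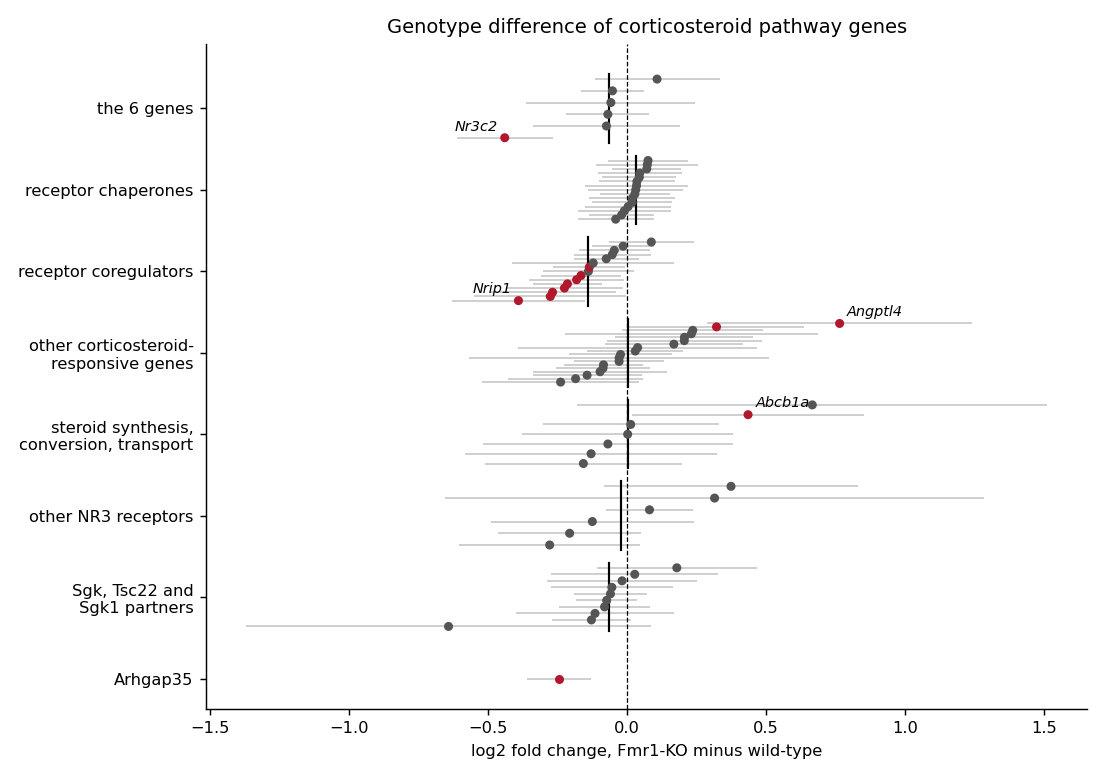
Log2 fold change, Fmr1-/y minus wild-type (horizontal axis), of each tested gene of the corticosteroid pathway by list, with 95% intervals as grey lines, list medians as black ticks and genes with an unadjusted edgeR p under 0.05 in red. Nr3c2 at -0.44 stands apart from the other 5 of the 6 genes, chaperones lie between -0.04 and 0.08, and 8 of 15 coregulators are red on the lower side.

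For each of the 6 genes, the genes whose log2 CPM varied most like it within genotypes were searched among 9692 genes over 12 libraries, as a description. Nr3c2 was closest to Plxna1, a semaphorin receptor (r = 0.961), Dock4, an exchange factor for Rac (0.939), and 6330403A02Rik (0.932). Nr3c1 was closest to Srprb (0.943), Rpl36al (0.930) and Mrpl48 (0.929). Fkbp5 had lower values, with St3gal4 at 0.905, Zfp277 at 0.872 and Prkrip1 at 0.845. Hsd11b1 was closest to the calcium-binding S100a1 (0.955), Rhoa (0.942) and the peroxiredoxin Prdx1 (0.937). Sgk1 was closest to Unc119b (0.987), Stard13 (0.969) and Atp6v0e (0.969), and Tsc22d3 to Elk4 (0.967), Ptpdc1 (0.959) and Slc31a2 (0.955). No gene was among the 3 closest of more than 1 of the 6 genes.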

How the data were processed

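RNAseq was performed on ribosome-bound mRNAs of 6 wild-type and 6 Fmr1-/y pools. The authors aligned 50-base stranded reads to mm10 with TopHat2 2.1.1 and Bowtie2 2.2.8, allowing 3 mismatches, counted reads per gene with HTSeq 0.6.1p1 in union mode and deposited raw counts. Each lane held 4 libraries, and which ones shared a lane is not given in the sources used here.

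Genes with at least 15 reads in total were kept. Genotypes were compared with edgeR 4.0.16 (TMM, quasi-likelihood test, no block or covariate, R 4.3.3) with Benjamini-Hochberg adjustment. DESeq2 1.42.0, limma 3.58.1 voom, other scalings and filters, a replicate block, each library left out and a threshold of 0.1 were alternatives, and fits with marker scores and the counts of lower coregulators were added after seeing the data. Correlations used 100000 resamples within genotypes. Log2 CPM used a prior count of 2. Lengths are exons of GENCODE M21, found for 93.2% of genes tested, and windows and coordinates are from RefSeq on GRCm38.p6. The genes and lists were chosen with earlier results of these data known. Named are the 6 genes, in each list the 3 genes with the highest mean CPM and those called by edgeR or DESeq2, Arhgap35, and the 3 genes most like each of the 6. 1 gene was left out of the lists and is not reported here.

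On counts simulated for 17636 genes of this comparison, edgeR recovered 22% of genes changed by 1.25-fold, 56% by 1.5-fold and 96% by 2-fold, with 5.52% of its calls unchanged genes, and DESeq2 recovered 32%, 64% and 96%, with 15.1%.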

Additional observations from a re-analysis of the deposited data

Results flagged for a closer look

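In 70 groups of 6 libraries searched, 2 had a library far from the others, where chance gives about 3.5. Smarca4 was low in Fmr1-/y replicate 4, with a log2 CPM of 7.21 against 7.38 to 7.45 in the other 5, a gap of 0.688 of the range of the group, which is past the 95% critical value of Dixon's test. The dentate granule marker score was low in Fmr1-/y replicate 5, at 3.12 against 3.49 to 3.63, a gap of 0.726 of the range.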

How the results depend on the processing

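Over 22 alternatives, the direction and side of the threshold held in 123 of 132 comparisons for the 6 genes, and over 19 alternatives in 350 of 361 for the other named pathway genes. Of the 6 genes, all but Nr3c2 had edgeR adjusted p-values of 0.877 to 0.961 in the main fit. Their side of the threshold was thus hardly at stake. DESeq2 called 84 genes in place of 4 and 1 of the 6 genes in place of 0, with Nr3c2 at -0.44 (adjusted p = 0.00118). Leaving out 1 library gave 2 to 6 genes past the threshold, and 2, 1 and 2 were called with the CA1, endothelial and dentate granule scores as covariates. Leaving out 1 library turned some signs, with ranges of -0.13 to 0.047 for Sgk1, -0.14 to 0.022 for Tsc22d3, -0.0026 to 0.061 for Hsp90aa1, -0.030 to 0.017 for Smarca4, -0.0025 to 0.092 for Fam107a and -0.086 to 0.087 for Srd5a1. Smarca4 was 0.0087 with library size only. With the endothelial score, Hsd11b1 turned to -0.027, Sgk1 to 0.064 and Tsc22d3 to 0.14, and with the dentate granule score Sgk1 turned to 0.17 and Tsc22d3 to 0.11. The cause of these turns was not tested. Of the 15 coregulators, 2 were lower with library size only, where 2.77% of all genes were lower. The count was 2 to 9 when 1 library was left out, where 2.78% to 4.49% of all genes were lower. Of the gene pairs, 0 passed by Spearman's correlation, and 0 to 1 when 1 library was left out. The deviations of same-numbered libraries had a mean correlation of 0.0246 over all genes (-0.081 to 0.090) and 0.155 over genes with a mean log2 CPM over 5 (-0.44 to 0.60), and as not every pair was positive the numbers were not taken as pairs. With a replicate block the SE fell from 0.144 to 0.090 for Sgk1 and from 0.125 to 0.097 for Tsc22d3. It also fell for Fkbp5 and Hsd11b1 and rose slightly for Nr3c2 and Nr3c1. Whether same-numbered libraries shared a batch was not tested. With the replicate block, edgeR called 4 genes and 0 of the 6, Nr3c2 was -0.45 (adjusted p = 0.115) and 0 gene pairs passed. In that fit 7 of 15 coregulators were lower, against 4.26% of all genes.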
